A study of Rattus norvegicus with 12 samples.

Results

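Cultures of rat cerebellar granule neurons were followed between 3 h and 6 h in low potassium. The members are the 6 of the 12 arrays in the series whose titles read low potassium, 3 at 3 h and 3 at 6 h, and all 31042 non-control probe sets of an Affymetrix rat array. They are called LK_3h A, B and C and LK_6h A, B and C, after the letters in the titles. The other 6 arrays carry cultures treated with GW5074, a small-molecule inhibitor of the kinase c-Raf, 3 at 3 h and 3 at 6 h (GW_3h and GW_6h). They entered the fit for the estimate of the spread and serve here only as a second course of time. Total RNA came from material labelled as cerebellum of the brain, and the labels give no strain, age or day in culture. Whether potassium was lowered in the GW5074 cultures too is not in the labels. Nor is it stated that the letters are separate cultures, and the replicate spread behind the p-values may thus be technical. No group is labelled as untreated or as kept in raised potassium, so a response to low potassium and time in culture cannot be told apart.

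Granule neurons are the small excitatory neurons of the cerebellar cortex, and in culture they are usually kept alive by raised potassium, which depolarises them and lets calcium in. When potassium is lowered, calcium entry stops, survival signalling through AKT declines, the stress kinase JNK phosphorylates the transcription factor Jun, and after some hours the neurons die by apoptosis that needs new transcription. BH3-only proteins such as Hrk and Bim are among the products known to drive that death. In intact cerebellum, granule neurons that mature switch on the GABA-A receptor subunit Gabra6.

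Values are deposited intensities. Changes are log2 differences, 6 h minus 3 h, of the quantile-normalised intensity with 16 added, and folds are on the same scale, so they understate the change of dim probe sets. Groups were said not to overlap when all 3 normalised values at 6 h lay on one side of the 3 at 3 h. A change was called at a limma adjusted p under 0.05, taken over 18625 probe sets that passed a filter on dim signal. A gene is given by its brightest probe set (10261 genes). Rose and fell are used for called changes only.

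The arrays of one time resembled each other, with LK_6h B nearest to the 3 h arrays. On an axis drawn from the GW5074 arrays alone, running from 0 at 3 h to 1 at 6 h, the early arrays lay between 0.003 and 0.174, LK_6h A at 0.957, LK_6h C at 1.073 and LK_6h B at 0.703. Without the GW5074 arrays of letter B in the axis, LK_6h A lay at 0.841, LK_6h C at 0.95 and LK_6h B at 0.564. Over the called probe sets the change of LK_6h B was 0.703 of the mean change of the other 6 h arrays (median). Without LK_6h B, 90.3% of the calls were made again. RNA quality was read from actin, whose 3-prime minus 5-prime log2 difference ran from 0.846 to 1.066 at 3 h and from 0.974 to 1.023 at 6 h (exact two-sided permutation p = 0.5, with 0.1 the smallest p that 3 against 3 allow). The poly-A spike-in signal was lower at 6 h by a mean log2 of -0.485 (exact p = 0.4), and the part of either in the results was not tested.

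Marker sums differed between cell types. The summed intensity of 17 granule neuron markers was 7135 to 9296.7 at 3 h and 13985.9 to 16331 at 6 h, without overlap. That of 11 astrocyte markers was 3282.2 to 4215.8 and then 4925.6 to 7422.9, also without overlap, with Slc1a2 below the filter. Gfap alone went from a mean of 473 at 3 h to 1946 at 6 h. Of the 10 astrocyte markers tested 3 rose and 3 had a change below 0, so the sum does not speak for each marker. The sum of 11 oligodendrocyte lineage markers was lower at 6 h (3368.9 to 4176.4, then 2430.9 to 2669.5). Microglial and macrophage markers (740.1 to 1409.7, then 733.6 to 1264), endothelial and fibroblast markers (510.2 to 621.5, then 429.2 to 742.2) and Purkinje and GABAergic markers (1329.3 to 1567.1, then 1243.5 to 1458.1) overlapped between the times. Of the microglial markers Aif1, Itgam, Cx3cr1 and Ptprc lay below the filter, as did 7 of 11 endothelial and fibroblast markers. In these bulk samples, fewer cells of a type and less RNA per cell cannot be told apart. The part of the glial markers in the results below was not tested.

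A large share of the transcriptome moved between 3 h and 6 h. Of the probe sets tested 4223 (22.7%) were called, of which 2169 (11.6%) rose and 2054 (11.0%) fell. By gene, 2620 of 10261 (25.5%) were called: 1172 (11.4%) rose and 1448 (14.1%) fell. The median change over all genes was -0.04, with quartiles of -0.34 and 0.26, and the median size of a called change was 0.74. By gene 347 fell and 240 rose by over 2-fold, but over probe sets these counts were nearly equal (511 and 505). By over 4-fold, 29 genes fell and 5 rose, and 40 probe sets fell and 10 rose. The groups did not overlap for 39.1% of the probe sets and 42.3% of the genes tested, which included 2554 of the called genes. Of the 1176 other probe sets of called genes, 90.8% had the same sign but only 489 (41.6%) were called in the same direction. In the opposite direction 7 were called. The number of calls depended on single arrays, at 2192 probe sets without LK_3h B, 2580 without LK_6h A and 2318 without LK_6h C, but 4956 without LK_6h B.

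**Figure D1:**
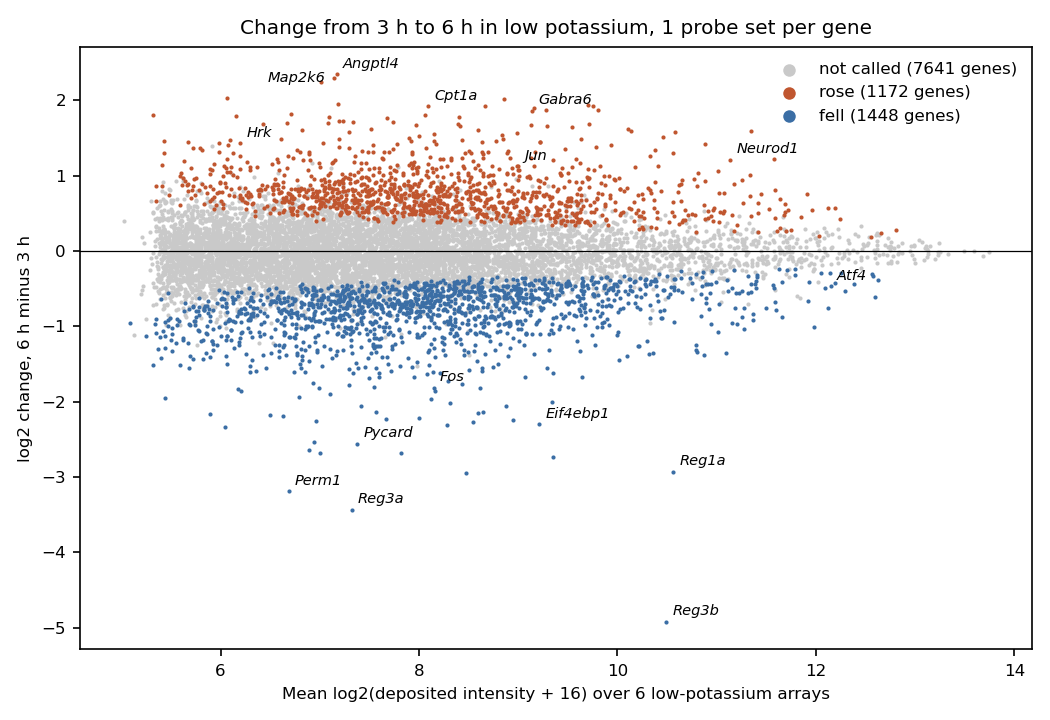
Log2 change from 3 h to 6 h in low potassium (vertical axis) against the mean log2 level over the 6 low-potassium arrays (horizontal axis), 1 point per gene by its brightest probe set, with called rises and falls in colour. Falls reach further than rises, with Reg3b lowest at -4.92 and Angptl4 highest at 2.34.

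The deepest falls were in the Reg genes, which encode small secreted C-type lectins made by pancreas and gut and by injured neurons, and which STAT3 is known to switch on. Reg3b had intensities of 8832, 9370 and 6115 on the A, B and C arrays at 3 h and of 91.9, 735 and 199 at 6 h. All 3 later values were a small part of the earlier ones, and LK_6h B was the highest of them. The change was -4.92 (SE 0.69, 30.3-fold lower, adjusted p = 0.000642). For Reg1a the values were 5426, 6188 and 2299, then 468, 954 and 313 (-2.93, 7.61-fold lower, adjusted p = 0.00138). Reg3a gave 832, 789.9 and 197, then 35, 47.6 and 19.5 (-3.43, 10.8-fold lower, adjusted p = 0.000981). In all 3 genes A and B lay above C at 3 h and B was the highest array at 6 h. They are related in sequence, and how far their probe sets share signal was not tested.

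The 250 bases before the start of Reg3b and Reg1a are shown because both hold a STAT motif (TTCNNNGAA, in capitals), a motif searched for after the values were seen. They lie at chr4:112419526-112419775 and chr4:112450216-112450465 on the plus strand of GRCr8 (RefSeq).
Reg3b: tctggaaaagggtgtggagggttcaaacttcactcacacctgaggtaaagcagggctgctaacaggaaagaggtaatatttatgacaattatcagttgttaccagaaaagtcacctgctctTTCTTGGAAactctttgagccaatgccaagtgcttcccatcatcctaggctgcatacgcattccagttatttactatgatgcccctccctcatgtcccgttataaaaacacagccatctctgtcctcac
Reg1a: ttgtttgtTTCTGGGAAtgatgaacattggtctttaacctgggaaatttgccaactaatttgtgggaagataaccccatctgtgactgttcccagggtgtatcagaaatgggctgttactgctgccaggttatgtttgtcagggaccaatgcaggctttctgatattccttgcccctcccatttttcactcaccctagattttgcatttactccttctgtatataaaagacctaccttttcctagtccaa
The match lies 129 to 121 bases before the start in Reg3b and 242 to 234 in Reg1a. Of 8583 tested genes with a window, 6.3% hold such a match on either strand, and so do 6.1% of those that rose and 6.0% of those that fell, so the letters alone are common.

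Of 19 genes of the gp130, NF-kB and inflammatory list 5 fell, Reg3b and Reg1a included, and 0 rose, against 25.5% of all genes called (2 to 5 fell with 1 low-potassium array left out, 2 without LK_3h B and 3 without LK_3h C or LK_6h C; median -0.38). Socs3, the feedback inhibitor of STAT3 signalling, had 56.4, 52.4 and 31.1 and then 7.4, 20.8 and 21.1 (-0.92, adjusted p = 0.0287). That call was lost without LK_3h A (adjusted p = 0.0994), LK_3h B (0.101) or LK_6h A (0.123). Pycard, the adaptor of inflammasomes, had the tightest values of the large falls. They were 392, 381 and 378 at 3 h and 66.8, 54.2 and 40.5 at 6 h (-2.56, SE 0.15, 5.89-fold lower, adjusted p = 9.94e-07). Nfil3, a bZIP repressor known in circadian and immune regulation, fell 3.18-fold (-1.67, adjusted p = 0.000144).

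A second group among the deepest falls carries names from striated muscle. Perm1, a regulator of mitochondrial and contractile genes in muscle, had 223, 306 and 371 at 3 h and 3.61, 45.7 and 17.2 at 6 h (-3.19, SE 0.46, 9.14-fold lower, adjusted p = 0.000752). Xirp1, an actin-binding protein of muscle attachment sites, had 239, 313 and 285 and then 43.2, 45.2 and 15.1 (-2.64, SE 0.34, adjusted p = 0.000404). In both, every 6 h array lay far below every 3 h array. Mlf1, a protein first described in myeloid leukaemia that is abundant in muscle, fell 7.69-fold (-2.94, adjusted p = 0.00181).

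Further muscle genes were looked up after these values were seen. Of 32 on the array 15 passed the filter, and a dim gene could pass it through its 3 h level alone, so the number that fell among them is not read as a result. The myogenic factor Myog gave 214, 183 and 142, then 38.7, 89.8 and 52.1 (-1.46, adjusted p = 0.00163). The membrane repair protein Trim72 gave 522, 526 and 555, then 55.6, 256 and 71.2 (-2.22, adjusted p = 0.00245). Csrp3, a muscle LIM protein, fell 4.16-fold and Stac, a regulator of calcium channels, 4.8-fold. Acta1, skeletal actin, had a change of -1.07 (adjusted p = 0.0215), which was lost without LK_3h A (0.093), LK_3h B (0.0671), LK_6h A (0.0735) or LK_6h C (0.0932). The troponin C genes Tnnc1 (0.79, adjusted p = 0.00554) and Tnnc2 (1.77, adjusted p = 0.00381) rose.

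**Figure D2:**
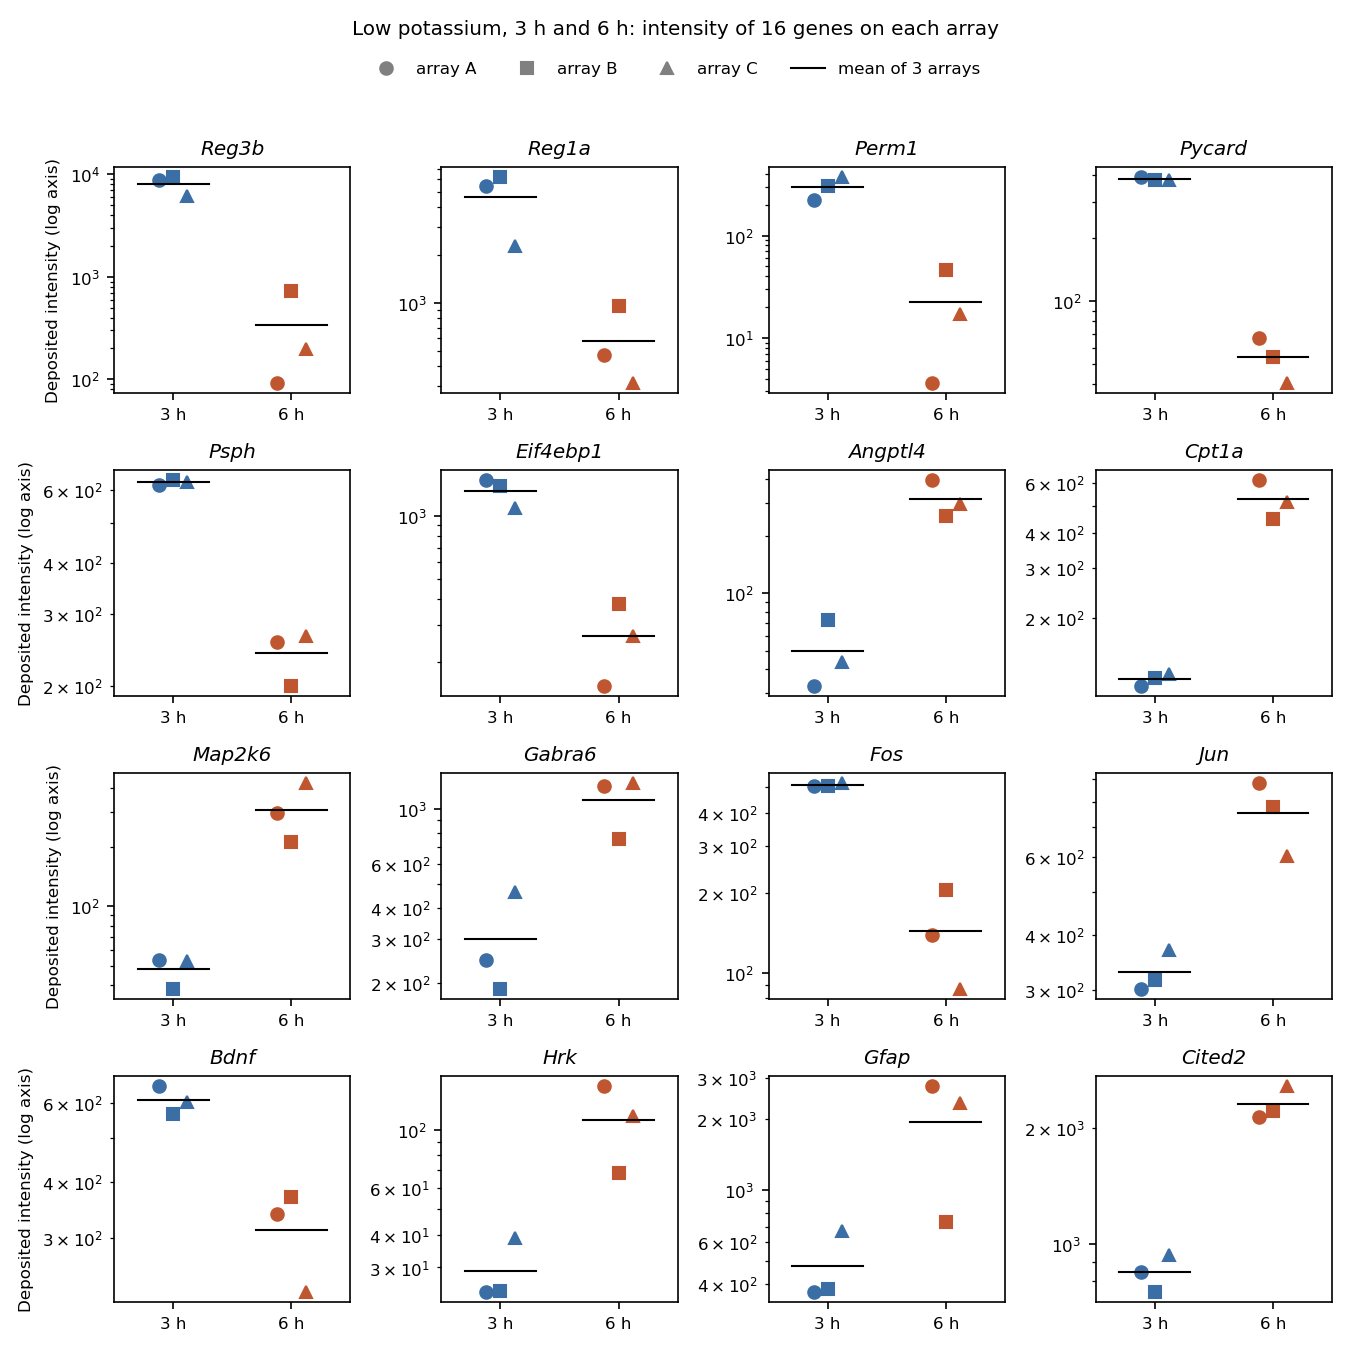
Deposited intensity on a log axis in each of the 6 low-potassium arrays for 16 genes, with letters A, B and C as symbols, 3 h in blue, 6 h in red and a line at the mean of 3 arrays. The values at the 2 times do not overlap in any of the 16 panels, and LK_6h B is the 6 h array nearest to 3 h for Reg3b, Gabra6, Hrk and Gfap.

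The other genes among the 15 largest falls have varied roles. Amigo2, an adhesion protein known to favour survival of depolarised granule neurons, had 1490, 1666 and 1956 at 3 h and 164, 449 and 172 at 6 h (-2.74, SE 0.40, 6.66-fold lower, adjusted p = 0.000806). LK_6h B kept the highest of the 3 later values, still well below every earlier one. Ptger3, a receptor for prostaglandin E, fell 5.06-fold, and Gch1, the first enzyme of tetrahydrobiopterin synthesis, fell 4.97-fold. Palmd, a palmdelphin of the cytoskeleton, had 277, 329 and 234 and then 28.4, 49.2 and 32.1 (-2.54, adjusted p = 7.22e-06), and all 4 of its probe sets had the same sign. Eif4ebp1, which holds back cap-dependent translation and is itself a target of ATF4, had 1480, 1385 and 1088 and then 153, 377 and 268 (-2.30, SE 0.33, 4.92-fold lower, adjusted p = 0.000752). The uncharacterised LOC102554253 fell 6.43-fold. Tmem158 (-2.69, adjusted p = 0.0161) lost its call without LK_3h A, LK_3h B, LK_6h A or LK_6h C (adjusted p = 0.0552, 0.0725, 0.0615 and 0.079 in that order). Pde10a, a phosphodiesterase of cyclic nucleotides (-2.27, adjusted p = 0.0104), lost it without LK_6h A (0.0506).

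The largest rise was in Angptl4, a secreted inhibitor of lipoprotein lipase that fatty acids induce through PPAR receptors. It had 32.5, 72.9 and 43.7 at 3 h and 394, 257 and 296 at 6 h (2.34, SE 0.30, 5.08-fold higher, adjusted p = 0.000404). Cpt1a, which carries long-chain fatty acids towards the mitochondrion, had 115, 123 and 127 and then 614, 448 and 516 (1.93, SE 0.16, 3.8-fold higher, adjusted p = 5.24e-05). The 3 h values of Cpt1a lay within a few units of each other, and every 6 h value was far above them. Cidec, a lipid droplet protein, had 1.98, 26.5 and 31.6 and then 137, 76.2 and 162 (2.03, adjusted p = 0.00216).

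A list of fatty acid oxidation and lipid droplet genes was drawn up after these rises were seen and holds them, so its count only describes it. Of its 16 tested oxidation genes 6 rose and 0 fell (5 to 8 rose with 1 low-potassium array left out). Acadl, a long-chain acyl-CoA dehydrogenase, had 149.7, 119 and 104 and then 559, 251 and 596 (1.67, adjusted p = 0.00234). Among the 6 h arrays LK_6h B had the smallest increase. Cpt2 (0.97, adjusted p = 0.0027), which acts after Cpt1a, the enoyl-CoA isomerase Eci2 (1.42, adjusted p = 0.00436) and the thiolase Acaa2 (0.79, adjusted p = 0.00221) also rose, and Decr1 was the sixth oxidation gene. Its call was lost in 12 of the 23 alternatives (adjusted p up to 0.186, without LK_3h B). Members of the wider list fell too: the fatty acid binding protein Fabp3 went from 2738, 2956 and 3040 to 992, 1547 and 796 (-1.35, adjusted p = 0.00177). Ppargc1a, a coactivator of mitochondrial genes, had -0.93 (adjusted p = 0.0193), lost without LK_3h C (0.0701), LK_6h A (0.0896) or LK_6h C (0.0715).

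The other large rises included genes of membranes, signalling and growth arrest. Map2k6, a kinase that activates p38, had 53.6, 38.1 and 53 at 3 h and 297, 212 and 421 at 6 h (2.30, SE 0.33, 4.91-fold higher, adjusted p = 0.00077). Ccng2, an unconventional cyclin linked to growth arrest and known as a FOXO target, had 401, 378 and 528 and then 1872, 1104 and 2140 (1.93, adjusted p = 0.00096). Fxyd7, a brain regulator of the sodium pump, rose 3.86-fold, the neuronal calcium sensor Vsnl1 rose 3.82-fold and the chloride channel family member Ttyh2 rose 3.8-fold. Tspan1 rose 4.72-fold, Tmem178a 4.03-fold and Igsf21, a synaptic adhesion protein, 3.66-fold. Inpp5j, a phosphatase of inositol lipids, had 39.4, 23.1 and 62.7 and then 312, 77.9 and 231 (1.82, adjusted p = 0.00618). LK_6h B lay lowest of the 6 h arrays for each of these genes, although not within the range at 3 h.

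Most genes of granule neuron identity and maturation rose. Of 17 markers tested 10 rose and 0 fell (58.8% called against 25.5% of all genes). Rises numbered 7 to 10 with 1 low-potassium array left out, and the median was 0.72 against -0.04 over all genes. Gabra6 had 247, 188 and 465 at 3 h and 1236, 755 and 1268 at 6 h (1.86, SE 0.32, 3.64-fold higher, adjusted p = 0.00179). Fat2, a giant cadherin of parallel fibres, had 221, 238 and 424 and then 1249, 718 and 1428 (1.90, adjusted p = 0.00153). For both, LK_3h C was the highest of the early arrays and LK_6h B the lowest of the late ones. Neurod1, a bHLH factor that drives granule neuron differentiation, had 1543, 1235 and 1878 and then 2949, 3472 and 3389 (1.21, SE 0.14, 2.32-fold higher, adjusted p = 0.000267), with LK_6h B here the highest. Cbln1, the synaptic organiser released by parallel fibres, rose 2.68-fold (1.42, adjusted p = 0.000259), the splicing factor and nuclear marker Rbfox3 rose 2.72-fold (1.44, adjusted p = 7.5e-05) and the phosphodiesterase Pde1c rose 2.78-fold (1.48, adjusted p = 0.00149).

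Of 10 astrocyte markers tested 3 rose (30.0% called against 25.5% of all genes): Gfap, Hopx and Aldoc. The intermediate filament gene Gfap had 368, 380.1 and 671 at 3 h and 2764, 728 and 2346 at 6 h (1.87, SE 0.43, adjusted p = 0.00808). LK_6h B stood apart, just above LK_3h C. Without that array the change was 2.49 (adjusted p = 0.000369). Hopx, a small homeodomain protein, had 211, 264 and 403 and then 735, 588 and 914 (1.30, adjusted p = 0.00142). Aldoc, an aldolase made by astrocytes and Purkinje cells, had a change of 1.10, not called without LK_3h A (adjusted p = 0.147), LK_3h B (0.0981), LK_6h A (0.124) or LK_6h C (0.144). In the oligodendrocyte lineage the myelin enzyme Cnp (-0.66, adjusted p = 0.00687) and Ugt8 fell, 2 of 8 tested. That count was 1 without LK_3h A, LK_3h B, LK_6h A or LK_6h C. Pvalb, parvalbumin of inhibitory neurons, was the 1 of 10 Purkinje and GABAergic markers that fell (452, 418 and 349.7, then 191, 208 and 137, -1.17, adjusted p = 0.000967). It was 2 of 10 without LK_3h A and, with 2 rises, without LK_6h B. None of the 8 microglial and 4 endothelial or fibroblast markers tested was called by limma, and 0 of them had an unadjusted p under 0.05.

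Immediate early genes, the first to respond to stimulation, fell more often than they rose, but Jun went the other way. Jun had 301, 315 and 368 at 3 h and 879.9, 778 and 603 at 6 h (1.13, SE 0.26, 2.19-fold higher, adjusted p = 0.0083), and all 3 of its probe sets had the same sign. Fos, its partner in the AP-1 dimer, had 508, 506 and 519 and then 139, 206 and 86.8 (-1.81, SE 0.42, 3.52-fold lower, adjusted p = 0.00837). The early values of Fos were nearly equal, and each late one was far below them. Egr1, a zinc finger factor, had 192, 229 and 258 and then 615, 473 and 331 (0.95, SE 0.20, adjusted p = 0.0057). For both Jun and Egr1, LK_6h A was the highest of the later arrays and LK_6h C the lowest.

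Of all genes tested 25.5% were called (11.4% rose and 14.1% fell). Of 24 AP-1 and immediate early genes tested 2 rose, Jun and Egr1, and 10 fell (median -0.61). The count of falls was 5 without LK_3h B, 6 without LK_6h A and 3 without LK_6h C, and 12 without LK_6h B. The orphan nuclear receptors Nr4a1 (146, 132 and 137, then 37.1, 67.7 and 33.3, -1.40, adjusted p = 0.000817) and Nr4a3 (3.03-fold lower, adjusted p = 0.00506) fell. Atf3, a stress-induced bZIP factor, had 257, 453 and 640.4 and then 211, 185 and 43.6 (-1.67, adjusted p = 0.0137), with a wide spread at both times. Its call was lost without LK_3h B (adjusted p = 0.054), LK_3h C (0.0538) or LK_6h C (0.0522). The serum response motif CArG stood in 4 of 16 windows of this list (against 1.3% of all tested genes), those of Egr1, Egr2, Klf6 and Srf, of which Egr1 rose, Klf6 fell (not without LK_3h B, LK_6h A or LK_6h C) and the other two were not called.

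Many genes that neuronal activity maintains through calcium and CREB fell. Of 16 activity-dependent genes tested 9 fell and 0 rose (56.2% called against 25.5% of all genes, median -0.93). The count was 5 without LK_3h B or LK_6h A and 4 without LK_6h C. Bdnf, a neurotrophin, had 653, 567 and 601 at 3 h and 339.7, 371 and 227 at 6 h (-0.96, SE 0.17, 1.95-fold lower, adjusted p = 0.00209). Nrn1, a membrane-anchored neuritin, had 2743, 3245 and 3332 and then 1291, 1793 and 1094 (-1.07, adjusted p = 0.00315). Neither gene had any overlap between the times. Tac1, the precursor of substance P (-1.13, adjusted p = 0.00124), and the small GTPase Rasd1 (-1.26, adjusted p = 0.00392) also fell.

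The granin Scg2 had 6100, 5918 and 5824 and then 2093, 4236 and 2259 (2.01-fold lower, adjusted p = 0.0111), and the neuropeptide precursor Vgf had 1685, 1896 and 2008 and then 642, 1146 and 530.5 (-1.26, adjusted p = 0.0179). In both, LK_6h B stayed much higher than the other 6 h arrays. The call of Scg2 was lost without LK_6h A (adjusted p = 0.0571) or LK_6h C (0.0531), and that of Vgf without LK_3h B (0.0634), LK_6h A (0.0659) or LK_6h C (0.0846). The stretch around the cAMP response element (CRE, TGACGTCA, in capitals) in their promoters is shown because CREB binds this element. They lie at chr9:88256956-88257015 and chr12:25277077-25277136 on the minus strand of GRCr8 (RefSeq), written along the gene.
Scg2: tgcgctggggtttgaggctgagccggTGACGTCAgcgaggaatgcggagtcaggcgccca
Vgf: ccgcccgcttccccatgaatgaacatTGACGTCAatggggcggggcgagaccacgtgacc
The element lies 123 to 116 bases before the start in Scg2 and 90 to 83 in Vgf. It stood in 3 of the 11 activity-dependent windows (with Crem, which was not called at 0.03). The share was 3.2% of all tested genes, 3.2% of those that rose and 3.5% of those that fell. The STAT motif also stood in 3 of these 11 windows, against 6.3% of all. The CRE also stood in 3 of 16 windows of the AP-1 and immediate early list.

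Of 8 tested genes of CREB and its partners 5 rose and 0 fell, and of 3 MEF2 genes 0 rose and 2 fell. Over both families 63.6% were called, against 25.5% of all genes. Creb1 had 133, 89.8 and 106 at 3 h and 292, 199.5 and 482 at 6 h (1.31, adjusted p = 0.00808), and the acetyltransferase Ep300 rose 1.86-fold (0.90, adjusted p = 0.00663). Mef2c, a survival factor that calcium activates in granule neurons, had 182, 209 and 299 and then 61.7, 139.8 and 78.5 (-1.26, adjusted p = 0.00761). Over the 11 genes of both families, rises numbered 3 without LK_3h A or LK_6h C and 2 without LK_3h B or LK_6h A. Falls numbered 1 without LK_3h C or LK_6h A.

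The kinase cascades had shares of called genes near the 25.5% over all genes: 33.3% for JNK, 23.1% for p38 and 33.3% for RAF, MEK and ERK, each over few genes. Of 9 JNK cascade genes tested 2 rose and 1 fell (median -0.02). Both rises acted upstream or as scaffold: the kinase Map3k12 (DLK), which starts JNK signalling in injured axons, had 667, 689.8 and 570.1 and then 1020, 876 and 1013 (0.60, adjusted p = 0.00554). The scaffold Spag9 (JIP4) rose 1.96-fold (0.97, adjusted p = 0.00266), and all 4 of its probe sets had the same sign. The fall, in Map3k1 (-0.95), was not called without LK_3h A, LK_3h B, LK_3h C, LK_6h A or LK_6h C. Of 13 p38 genes 1 rose (Map2k6) and 2 fell (2 and 4 without LK_6h B, 3 falls without LK_3h A, and 1 without LK_3h C or LK_6h A). Of 9 RAF, MEK and ERK genes 1 rose and 2 fell, and 0 rose and 0 fell without LK_3h A, LK_3h B or LK_6h A. Without LK_3h C it was 0 and 3, without LK_6h C 0 and 1 and without LK_6h B 1 and 1.

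Among the dampers of these kinases the 3 Gadd45 genes, which bind stress kinases, split. Gadd45b had 542, 682 and 638 at 3 h and 164, 280.0 and 111 at 6 h (-1.77, SE 0.33, 3.41-fold lower, adjusted p = 0.0025). Gadd45g had 1202, 1535 and 1174 and then 846, 783 and 403 (-0.95, adjusted p = 0.0306), lost without LK_3h A (0.0622), LK_3h B (0.12) or LK_6h C (0.141). Gadd45a rose by 0.72, a call lost without LK_3h B (0.0562) or LK_6h A (0.0748). The whole list of 14 phosphatases and dampers had 2 rises and 2 falls (28.6% called against 25.5% of all genes). It had 0 rises without LK_3h B or LK_6h A, 1 without LK_3h A or LK_6h C and 3 without LK_6h B. It had 1 fall without LK_3h A, LK_3h B or LK_6h C and 4 without LK_6h B.

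Among the genes of apoptosis Hrk rose. It encodes a BH3-only protein that neurons make when deprived of trophic support, and had 24.2, 24.4 and 38.9 at 3 h and 146, 68.4 and 113 at 6 h (1.43, SE 0.28, 2.7-fold higher, adjusted p = 0.00321). Its values at the 2 times did not overlap, and it was called without each low-potassium array in turn. Bcl2l11 (Bim) had 617, 610.0 and 701 and then 386, 665 and 396 (-0.45, SE 0.21, adjusted p = 0.138). Only 1 of its 2 probe sets had this sign. LK_6h B lay within the range at 3 h, and without it the change was -0.71 (adjusted p = 0.0126). Bbc3 (Puma) had 337, 501 and 381 and then 653, 399.8 and 367 (0.17, SE 0.21, adjusted p = 0.608), so it was not called, and the sign was reversed without LK_6h A. Egln3, a prolyl hydroxylase linked to neuronal death, had -1.02 (adjusted p = 0.0426). It was not called in 12 of the 22 alternatives that tested it, with 0.19 without LK_6h C.

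Of 10 BH3-only and death-inducing genes tested 1 rose and 2 fell (30.0% called, against 25.5% of all genes). The falls numbered 0 without LK_3h A, LK_3h B or LK_6h C and 1 without LK_3h C. None of the 5 multidomain Bcl-2 genes tested was called by limma (median -0.19), nor with any low-potassium array left out, although 2 had an unadjusted p under 0.05. Casp2, an initiator caspase, had 148, 114 and 153 and then 318, 199.8 and 303 (0.83, adjusted p = 0.017), and was the 1 of 11 caspase and apoptosome genes that rose, while Diablo (-0.39) fell. Casp2 lost its call without LK_3h B (0.0826), LK_6h A (0.0749) or LK_6h C (0.068), and Diablo without LK_3h A, LK_3h B, LK_6h A or LK_6h C.

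Most genes of amino acid synthesis, uptake and charging to tRNA fell. They are the classical targets of ATF4, the bZIP factor made when eIF2-alpha is phosphorylated, which binds C/EBP-ATF elements. Of 30 genes of the ATF4 and amino acid response tested 21 fell and 0 rose (70.0% called against 25.5% of all genes). Falls numbered 15 to 20 with 1 low-potassium array left out. All 30 had a change below 0 (median -0.96). Atf4 had 4969, 6032 and 5730 at 3 h and 4032, 3460 and 3623 at 6 h (-0.47, SE 0.07, 1.38-fold lower, adjusted p = 0.000916). The change of Atf4 was smaller than the list median, and its values did not overlap between the times.

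All 8 enzymes of amino acid synthesis tested fell: Psph, Phgdh, Psat1, Shmt2, Mthfd2, Asns, Aldh18a1 and Cth. Mthfd2 was not called without LK_3h B (0.056). Psph, the last step of serine synthesis, had 618, 635 and 628 and then 257, 200.0 and 265 (-1.36, SE 0.19, 2.57-fold lower, adjusted p = 0.000646). Each group of Psph values was tight. Shmt2, which turns serine into glycine in mitochondria, had 2077, 2553 and 1848 and then 611, 1012 and 784 (-1.35, adjusted p = 0.000975). Among the transporters 6 of 7 fell. The cystine carrier Slc7a11 had 390.4, 344 and 257 and then 55.5, 97.6 and 114 (-1.80, SE 0.24, 3.49-fold lower, adjusted p = 0.000558). The arginine and lysine carrier Slc7a1 had 469, 494 and 661 and then 263, 297 and 277 (-0.94, adjusted p = 0.00163). Vldlr, a lipoprotein and reelin receptor that ATF4 can induce, fell 2.54-fold (-1.34, adjusted p = 0.00133), with all 4 probe sets of the same sign.

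Of the feedback genes in this list 2 of 5 fell, and of the factors 3 of 6. Trib3, a pseudokinase that ATF4 and CHOP induce, had 147, 220.1 and 267 and then 381, 117 and 144 (-0.18, SE 0.33, adjusted p = 0.736). LK_6h A was the highest of the 6 arrays and LK_6h B the lowest, and the sign was reversed without LK_6h B. Sesn2, which restrains mTOR when leucine is scarce, went from 671, 682 and 857 to 550.4, 279 and 412 (-0.85, adjusted p = 0.013).

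Of 19 cytosolic tRNA synthetases, which charge tRNAs with their amino acids, 13 fell and 0 rose (68.4% called against 25.5% of all genes). The median was -0.67, and 10 to 13 fell with 1 low-potassium array left out. Sars1, for serine, had 4781, 4908 and 4018 and then 2257, 2142 and 2438 (-0.88, SE 0.13, 1.84-fold lower, adjusted p = 0.000739). Wars1, for tryptophan, fell 2.37-fold (-1.24, adjusted p = 0.00236), and Eprs1, for glutamate and proline, fell 2.06-fold (-1.04, adjusted p = 0.00177). Tars1, for threonine, had 895, 883 and 884 and then 408, 392 and 559 (-0.97, adjusted p = 0.0014). Mars1, for methionine, had 1236, 1256 and 1274 and then 477, 552 and 826 (-1.01, adjusted p = 0.00856). In the last pair the 3 h arrays were nearly equal and LK_6h C was the highest of the later ones.

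**Figure D3:**
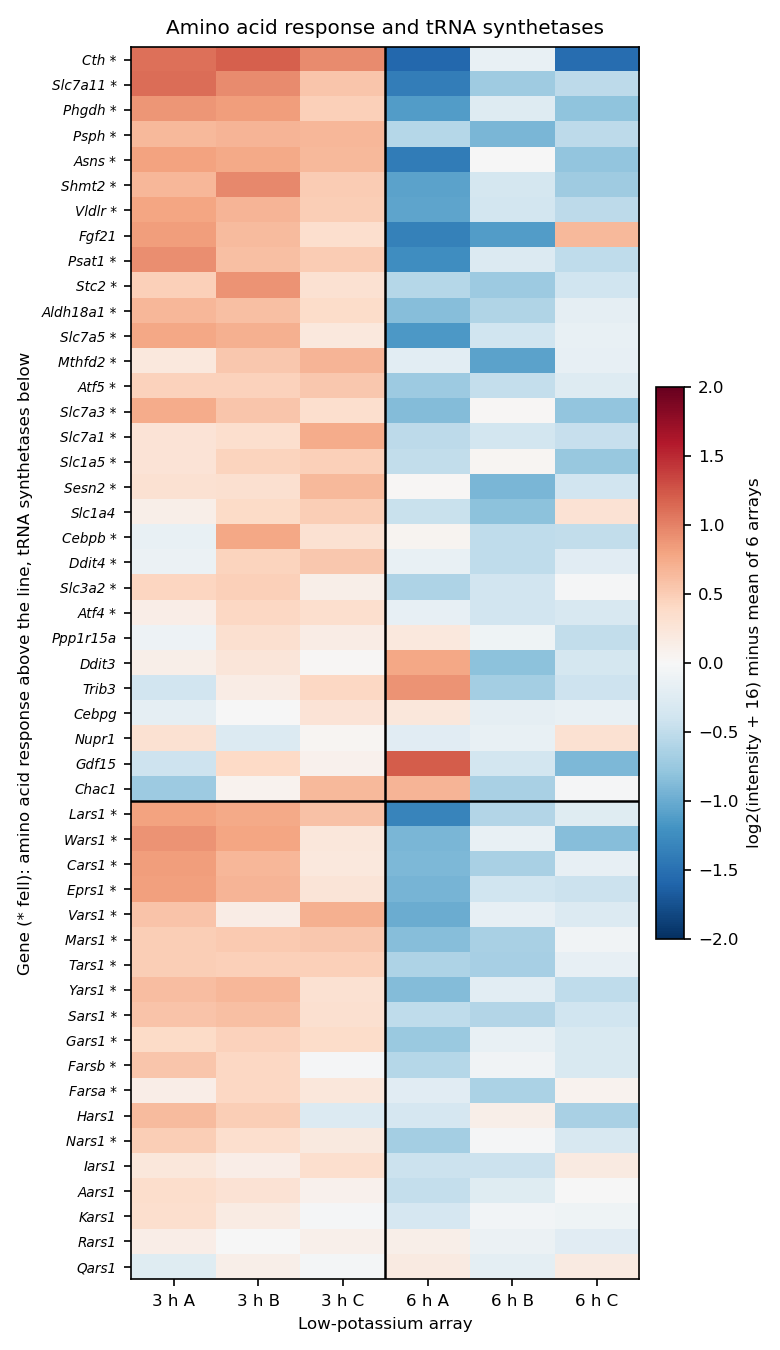
Log2 of intensity plus 16 in each low-potassium array, minus the mean of the 6 arrays, for the 30 genes of the amino acid response and the 19 tRNA synthetases tested (rows, ordered by change within each block; an asterisk marks a gene that fell). Most rows are red at 3 h and blue at 6 h, while Ddit3, Trib3 and Gdf15 are highest on LK_6h A.

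The stretches of promoter that hold a C/EBP-ATF element (TGATGNAA on either strand, in capitals) in Slc7a1, Mars1 and Tars1 are shown because ATF4 binds such elements. They lie at chr12:11664432-11664487 on the plus strand and at chr7:65023754-65023796 and chr2:62114803-62114855 on the minus strand of GRCr8 (RefSeq), each written along the gene.
Slc7a1: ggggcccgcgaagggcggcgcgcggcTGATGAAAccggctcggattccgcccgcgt
Mars1: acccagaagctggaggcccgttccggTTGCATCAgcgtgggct
Tars1: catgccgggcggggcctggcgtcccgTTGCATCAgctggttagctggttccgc
The element lies 30 to 23, 17 to 10 and 27 to 20 bases before the start in that order. It stood in 6 of 27 windows of the ATF4 list (22.2%) and in 5 of 17 of the synthetases (29.4%), against 1.9% of all tested genes, 1.7% of those that rose and 3.0% of those that fell. Most holders did not fall: Nupr1, Trib3, Chac1, Slc1a4, Fgf21, Aars1 and Iars1 hold it and were not called. Over all tested genes of the lists, 21 of 30 and 13 of 19 fell.

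Of 25 genes of ER folding and the unfolded protein response 5 fell and 1 rose (24.0% called against 25.5% of all genes, median -0.44). Falls numbered 3 without LK_3h A, LK_3h B or LK_6h C, 9 without LK_3h C, 8 without LK_6h A and 7 without LK_6h B, and rises 2 without LK_6h B. Edem1, which sends misfolded glycoproteins to degradation, had 401, 328 and 346 at 3 h and 151, 174 and 156 at 6 h (-1.14, SE 0.20, adjusted p = 0.00183). Sdf2l1, an ER chaperone component, fell 3.52-fold (-1.82, adjusted p = 0.00939) and the ER stress sensor Atf6 fell 1.66-fold (-0.73, adjusted p = 0.00408). The sensor kinase Eif2ak3 (PERK), which phosphorylates eIF2-alpha, rose (206, 157 and 151, then 523, 356 and 272, 1.01, adjusted p = 0.00699). All 3 mitochondrial chaperones tested fell, among them Hspa9 (2931, 2561 and 2035, then 1263, 1614 and 1434, -0.69, adjusted p = 0.00361). Over the whole heat shock list 6 of 17 fell and 1 rose (41.2% called). Falls numbered 3 without LK_3h A or LK_3h C, 2 without LK_3h B or LK_6h A and 1 without LK_6h C, and the rise was lost without LK_3h B, LK_6h A or LK_6h C.

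Of 18 antioxidant genes, many of them targets of NRF2, 4 fell and 1 rose (27.8% called against 25.5% of all genes, median -0.25). With 1 low-potassium array left out 3 to 6 fell, with 6 without LK_6h B. Hmox1, haem oxygenase, had 449, 597 and 392 at 3 h and 188, 136 and 126 at 6 h (-1.61, SE 0.21, 3.04-fold lower, adjusted p = 0.00041). Gpx4, which removes lipid peroxides, fell 1.35-fold (-0.44, adjusted p = 0.00583), from 6254, 6908 and 6116 to 4500, 4988 and 3781. Cat, catalase, rose (249, 256 and 221, then 729.8, 360.4 and 836, 1.23, adjusted p = 0.00591), least on LK_6h B.

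Hypoxia and glucose genes also moved unevenly. Bhlhe40, a bHLH repressor of the clock and hypoxia response, had 351, 367 and 415 at 3 h and 72.3, 133 and 40.8 at 6 h (-2.14, SE 0.25, 4.41-fold lower, adjusted p = 0.000267). Ndrg1 fell 1.9-fold (-0.93, adjusted p = 0.00222), whereas Mxi1, a MYC antagonist, rose 2.61-fold (1.38, adjusted p = 0.000433). Of 16 HIF and hypoxia targets 2 rose and 6 fell (2 falls without LK_3h B or LK_6h C, 3 without LK_3h C or LK_6h A). The glucose transporter Slc2a1 had 196, 196 and 214 and then 119.5, 122 and 94 (-0.84, adjusted p = 0.00127). Over 19 glycolysis genes 6 fell and 1 rose (36.8% called against 25.5% of all genes). Falls numbered 3 without LK_3h A, 1 without LK_3h B, and 2 without LK_6h A or LK_6h C. The rise was lost without LK_3h A, LK_3h B, LK_6h A or LK_6h C, and it was 2 without LK_6h B.

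FOXO factors enter the nucleus when AKT is inactive and switch on genes of growth arrest, antioxidant defence and death. Of 20 FOXO factors and targets tested 7 rose and 1 fell (6 to 8 rises with 1 low-potassium array left out; median 0.44). Over all genes 25.5% were called (11.4% rose and 14.1% fell). Foxo3 had 1252, 1068 and 1256 at 3 h and 1983, 2106 and 2210 at 6 h (0.89, SE 0.13, 1.85-fold higher, adjusted p = 0.000676). Cited2, which binds the coactivators CBP and p300, had 845, 749.9 and 936 and then 2133, 2222 and 2571 (1.51, SE 0.14, 2.85-fold higher, adjusted p = 9.2e-05). For both genes LK_6h B lay between the other 6 h arrays. Sesn1, a stress-inducible regulator of mTOR, rose 2.55-fold (1.35, adjusted p = 0.0009). Txnip, an inhibitor of thioredoxin, had 1590, 1276 and 1196 and then 792, 1630 and 1193 (-0.16, adjusted p = 0.726), with a sign that was reversed without LK_6h A. The count of falls was 2 without LK_3h A, 3 without LK_6h B and 0 without LK_3h B, LK_3h C or LK_6h A. A FOXO motif (TGTTTAC), searched for after the values were seen, stood in 3 of 17 windows of the list, those of Insr, Trim63 and Bcl2l11, none of them called, and in 2.1% of all.

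In the PI3-kinase and AKT pathway 3 of 17 genes rose and 2 fell (29.4% called against 25.5% of all genes). With 1 low-potassium array left out 2 to 4 rose. Pik3ip1, an inhibitor of PI3-kinase, had 129, 129 and 124 at 3 h and 394, 313 and 495 at 6 h (1.46, SE 0.19, 2.76-fold higher, adjusted p = 0.000404). Akt1 had 1059, 1002 and 1073 and then 597, 718 and 505 (-0.76, SE 0.16, adjusted p = 0.00521). Inppl1 (SHIP2), a lipid phosphatase that opposes the pathway, fell 2.92-fold (-1.54, adjusted p = 0.000642), and the regulatory subunit Pik3r3 rose 2.08-fold (1.06, adjusted p = 0.000916). Igf1r, the receptor for the survival factor IGF-1, had 183, 196 and 236 and then 633, 588 and 791. The change was 1.60 (SE 0.22, 3.04-fold higher, adjusted p = 0.000642), and that of its other probe set was 0.54.

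Of 24 neurotrophins, growth factors and receptors tested 9 fell and 2 rose (45.8% called against 25.5% of all genes, median -0.26). Falls numbered 5 without LK_3h B, LK_6h A or LK_6h C, and rises 1 without LK_3h A, LK_3h B, LK_6h A or LK_6h C. Igfbp3, which binds IGFs, had 260.0, 301 and 236 and then 75.3, 107 and 72 (-1.55, SE 0.20, 2.93-fold lower, adjusted p = 0.00041). Vegfb fell 2.3-fold (-1.21, adjusted p = 0.000342) and Pdgfa 1.97-fold (-0.97, adjusted p = 0.00274). Tgfb2 had 437, 528 and 379.7 and then 124, 166 and 208 (-1.41, SE 0.17, 2.66-fold lower, adjusted p = 0.000371), while Smad1, a transducer of BMP signals, rose 1.49-fold (0.57, adjusted p = 0.00321). Of 21 TGF-beta, BMP and Id genes 5 fell and 1 rose (28.6% called against 25.5% of all genes). Falls numbered 3 without LK_3h B or LK_3h C and 1 without LK_6h C.

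Among 16 genes of the p53 list 2 rose and 4 fell (37.5% called against 25.5% of all genes). There was 1 rise without LK_3h B or LK_6h A. Perp, a membrane protein of p53-dependent death, had 140.0, 135 and 93.7 at 3 h and 36.6, 52.2 and 28.3 at 6 h (-1.38, SE 0.25, adjusted p = 0.00243). The cell cycle inhibitor Cdkn1a had 725, 966 and 1054 and then 353, 485 and 228 (-1.37, adjusted p = 0.0185). It lost its call without LK_3h B (0.069), LK_3h C (0.0566), LK_6h A (0.0511) or LK_6h C (0.0877).

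Ion channel and pump genes moved in both directions. Scn2b, a sodium channel beta subunit, had 56.4, 56.6 and 80.5 at 3 h and 363, 149 and 292 at 6 h (1.73, SE 0.30, 3.31-fold higher, adjusted p = 0.00194). Kcnk1, a leak potassium channel, had 232, 221 and 278 and then 609.8, 422 and 482 (0.95, adjusted p = 0.0016). Kcna4, of the A-type current, fell (142, 129 and 190.1, then 83.8, 90.6 and 94.6, -0.73, adjusted p = 0.00663). Atp2b3, a plasma membrane calcium pump of granule neurons, rose 2.01-fold (1.01, adjusted p = 0.00226) and Cacng2 (stargazin), which brings AMPA receptors to granule neuron synapses, rose 2.02-fold (1.01, adjusted p = 0.00251). The other probe set of Cacng2 changed by only 0.09. Cacnb4, a calcium channel beta subunit, fell 2.2-fold (-1.14, adjusted p = 0.00209).

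Of 27 potassium channel genes 7 rose and 3 fell (37.0% called against 25.5% of all genes, median 0.28). Rises numbered 3 without LK_3h A, 1 without LK_3h B or LK_6h C and 2 without LK_6h A, and falls 1 without LK_6h A or LK_6h C. Of 27 calcium genes 4 rose and 3 fell (25.9% called against 25.5% of all genes). Rises were 2 without LK_3h A or LK_6h C, and falls 1 without LK_3h B. The sodium pump subunits split: Atp1b2 rose (576, 495 and 678, then 1062, 845 and 1211, 0.83, adjusted p = 0.0104), lost without LK_3h B (0.0562) or LK_6h C (0.0507). Atp1b1 had -0.39 (adjusted p = 0.0474), with overlap between the times and no call in 12 of the 23 alternatives (up to 0.196).

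Of 24 synaptic vesicle and release genes 5 rose and 2 fell (29.2% called against 25.5% of all genes, median 0.23). Rises were 3 without LK_3h B or LK_6h C, and falls 1 without LK_3h A, LK_3h B, LK_6h A or LK_6h C. Sv2b, a vesicle glycoprotein, had 1898, 1886 and 2547 and then 4612, 4099 and 4630 (1.22, SE 0.17, 2.33-fold higher, adjusted p = 0.000642). Syn2, synapsin II, rose 2.05-fold (1.04, adjusted p = 0.00195) and the complexin Cplx2 1.81-fold (0.86, adjusted p = 0.00613). The plasma membrane SNARE Stx1a went the other way (455, 663 and 496, then 242, 313 and 195, -1.09, adjusted p = 0.00333). Among 16 glutamate receptor genes only Grm4 rose and Grik1, a kainate receptor subunit, fell (411, 416 and 397, then 135, 222 and 137, -1.31, adjusted p = 0.00193). Grm4 was not called without LK_3h A, LK_3h B, LK_6h A or LK_6h C. Without LK_6h B, 3 of the 16 rose and 2 fell.

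Regrowth genes went both ways, with 6 of 25 that rose and 6 that fell (48.0% called against 25.5% of all genes). Falls were 2 without LK_3h B and 3 without LK_3h C or LK_6h C. Stmn4, a stathmin that destabilises microtubules, had 542, 614 and 796 and then 2631, 1504 and 1735 (1.59, SE 0.22, 3.02-fold higher, adjusted p = 0.000583). Sox11, a factor of immature and regrowing neurons, rose 2.39-fold (1.25, adjusted p = 0.00181), and the adhesion protein Flrt3 rose 2.53-fold (1.34, adjusted p = 0.00213). Unc5b, a netrin receptor that can signal death when netrin is absent, had 167, 133 and 118 and then 321, 216 and 275 (0.82, adjusted p = 0.00792).

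Called genes made up 4.4% of ribosomal protein genes, 13.2% of oxidative phosphorylation genes and 25.7% of proteasome genes, against 25.5% of all genes. Of 45 ribosomal protein genes 0 rose and 2 fell (median -0.01), with Rpl28 by -0.93 (adjusted p = 0.00395). Without LK_3h B, LK_3h C or LK_6h C 1 fell, and 1 rose without LK_3h A or LK_6h B. Of 53 oxidative phosphorylation genes 2 rose and 5 fell (median 0.05), with called changes between -0.40 and 0.31. Left out 1 at a time, all 6 low-potassium arrays moved one of these counts: their rises ran from 0 (LK_3h B or LK_6h A) to 7 (LK_3h C) and their falls from 1 (LK_3h B or LK_6h A) to 5 (LK_6h B). Of 35 proteasome genes 3 rose and 6 fell (median -0.15). The cap ATPase Psmc4 fell 1.56-fold and the cap subunit Psmd12 rose 1.47-fold. Falls were 2 without LK_3h B and 3 without LK_6h C, and rises were 1 without LK_3h B.

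Among 22 genes of autophagy and lysosomes 2 rose and 6 fell (36.4% called against 25.5% of all genes). Tfeb, the factor that switches on lysosomal genes, had 139.8, 175 and 159 at 3 h and 56.4, 69.5 and 35.7 at 6 h (-1.38, SE 0.17, 2.59-fold lower, adjusted p = 0.000371). Wipi1, which binds the membrane of forming autophagosomes, fell 2-fold (adjusted p = 0.000946), and the lysosomal enzyme Hexa fell 1.61-fold (-0.69, adjusted p = 0.00268). Falls were 3 without LK_3h B. Rises were 0 without LK_3h A, LK_6h A or LK_6h C and 1 without LK_3h B or LK_3h C.

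Of 32 splicing factors 8 rose and 8 fell. Of 9 SR proteins 2 rose and 1 fell (33.3% called). Of 13 hnRNP genes 6 fell and 1 rose (53.8% called), with Hnrnpd among the falls (1167, 1192 and 1106, then 772, 887 and 746, -0.49, adjusted p = 0.00797). Of 10 neuronal splicing and RNA-binding factors and splicing kinases 5 rose and 1 fell, with the kinase Clk1 at 305, 367 and 368 and then 641, 597 and 713 (0.85, adjusted p = 0.00274) and the neuronal factor Elavl3 at 0.67 (adjusted p = 0.00747). For Srsf6 (-0.71, adjusted p = 0.00509) 1 of 3 probe sets and for Elavl3 1 of 2 had the sign given here. Rises over the 32 numbered 3 without LK_3h B and 5 without LK_6h C, and falls 4 without LK_3h A or LK_6h A, 3 without LK_3h B, and 5 without LK_3h C or LK_6h C. Over 21 chromatin regulators 4 rose and 3 fell (33.3% called against 25.5% of all genes), with 2 to 3 rises with 1 low-potassium array left out. Of 11 deacetylases tested 3 fell, Hdac3 (-0.80, adjusted p = 0.00359), Hdac5 (-0.90, adjusted p = 0.00795) and Sirt2 (-0.73, adjusted p = 0.00202). Another, Hdac1, rose (0.67, adjusted p = 0.0221). The acetyltransferase Kat2b (0.68, adjusted p = 0.00801) and the histone demethylase Kdm3a (0.72, adjusted p = 0.00409) rose too. Hdac3, which takes part in granule neuron death, had 488, 563 and 557 and then 297, 344 and 284.

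**Figure D4:**
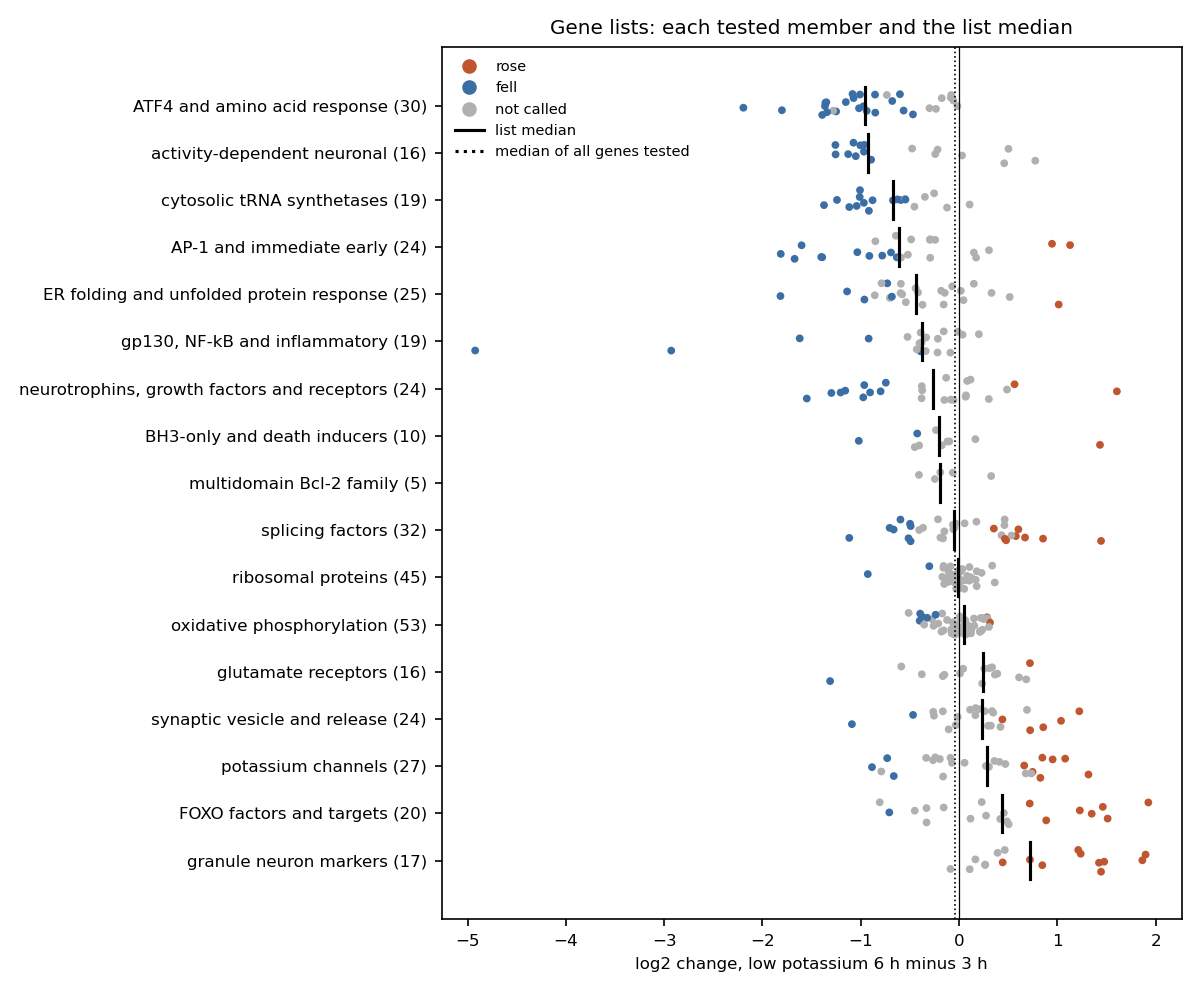
Log2 change from 3 h to 6 h in low potassium of each tested member of 17 gene lists (points, coloured by call), with the list median as a bar, the number tested in brackets and the median of all genes as a dotted line. The lists run from the ATF4 and amino acid response, with a median of -0.96, to granule neuron markers, with a median of 0.72.

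The same interval was measured with GW5074, in arrays that share no sample with the low-potassium arrays, although arrays of the same letter and time deviate together. Of the 2620 genes called in low potassium 2595 had the same sign with GW5074, 1878 were also called in the same direction and 0 in the opposite one. The same counts were not made over all genes tested, so these have no background beside them. Reg3b changed by -4.92 in low potassium and by -4.96 with GW5074, Gabra6 by 1.86 and 2.05 and Atf4 by -0.47 and -0.43. Without pairing, the test of the difference between both courses called 0 of 18625 probe sets in limma (0.0%), of which 644 had an unadjusted p under 0.05. With the letter pairs within a time as a block it called 33 (0.177%), among them 17 genes (0.166% of genes).

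The genes that differed in the paired test included a few of those described above. Stmn4 rose more in low potassium (1.59) than with GW5074 (0.65, paired adjusted p = 0.0248). Gadd45g fell less (-0.95 against -1.78, paired adjusted p = 0.0319). Atp1b2 rose less (0.83 against 1.60, paired adjusted p = 0.0319), and Atp1b1 had -0.39 against -0.00 (paired adjusted p = 0.0372). For other death and stress genes the paired test did not pass. Hrk had 1.43 against 0.40 (paired adjusted p = 0.12), Jun 1.13 against 0.57 (0.24), Egr1 0.95 against 0.40 (0.16) and Eif2ak3 1.01 against 0.25 (0.12).

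**Figure D5:**
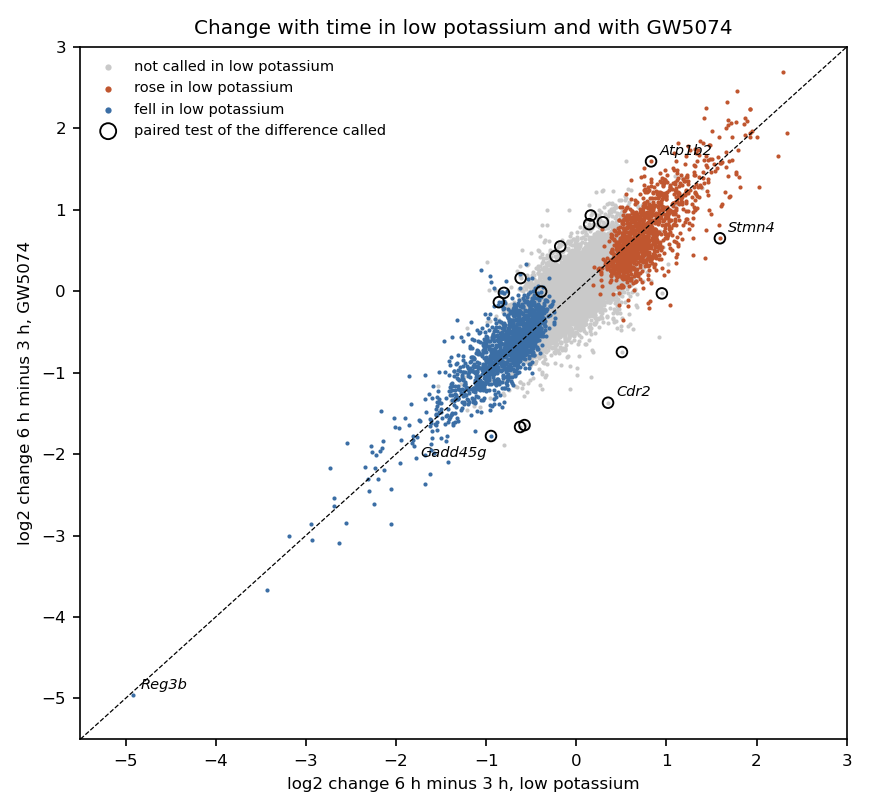
Log2 change from 3 h to 6 h with GW5074 (vertical axis) against that in low potassium (horizontal axis), 1 point per gene, with calls in low potassium in colour, circles around the 17 genes called by the paired test of the difference, and a dashed line of equal change. Nearly all coloured points lie on the same side of 0 on both axes, with Reg3b near the line at its lower end.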

How the data were processed

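RNA from 12 samples was measured on Affymetrix rat arrays, 3 in each of 4 groups. Each probe set has 1 deposited intensity on a linear scale, which the authors, judged from the values, scaled so that each array has a mean of 150.0 to 150.1 after removal of the lowest and highest 2%. Array medians run from 43.22 to 49.73. How the probes were summarised is not given in the sources used. Precision is limited by the number of arrays.

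The 57 control probe sets were set aside. The other 31042 were quantile-normalised, 16 was added and log2 was taken, which compresses the changes of dim probe sets. Probe sets with a mean at or above the 40th percentile were kept (18625). limma 3.58.1 in R 4.3.3 (lmFit, eBayes with a trend, two-sided) was fitted to 4 group means over all 12 arrays (8 residual degrees of freedom), the contrast was 6 h minus 3 h in low potassium, and p-values were adjusted by Benjamini-Hochberg over all probe sets kept. The fit was run on simulated data whose arrays varied independently. Arrays of one letter and time deviate together, so that run does not measure the error rate here. The figures used matplotlib 3.10.9 (Python 3.11.15).

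Of the probe sets 20826 carry 1 gene symbol, 436 several and 9780 none. A total of 20758 matched a rat gene table (GRCr8) by Entrez identifier, for 14217 genes, and promoter windows are RefSeq's 250 bases before the start in GRCr8. Motifs were sought on both strands and may overlap.

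The comparison and the 46 gene lists were chosen with earlier results of these data known. Genes named are the 15 largest rises and 15 largest falls whose groups do not overlap, up to 6 called members of each list by smallest p, and a preset group (Neurod1, Gabra6, Txnip, Bdnf, Trib3, Egln3, Bbc3, Hrk, Bcl2l11, Atf3, Fos and Jun). The muscle and fatty acid lists, the STAT and FOXO motifs, members listed to complete a family and members named for their motif or for a count of 5 or fewer were chosen after the values were seen.

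Letters were not paired across times. Within a time, the arrays of one letter under both treatments deviated together (correlations of 0.21 to 0.65 in the 6 pairs), so the test of the difference between both courses was also made with letter pairs as a block. The alternatives were another normalisation, pseudocount, filter, variance model, sample choice, weights and blocks, and leaving out single arrays.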

Additional observations from a re-analysis of the deposited data

Results flagged for a closer look

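The change from 3 h to 6 h differed between GW5074 and low potassium for 17 genes in the test with letter pairs within a time as a block. In the limma fit without pairs the adjusted p was 1.0 for each of them. Values are the log2 change with GW5074 minus that in low potassium, with the paired adjusted p in brackets.

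The difference was negative for 7 genes. Stmn4, the stathmin described above, had -0.94 (0.0248) and Gadd45g, the stress sensor, had -0.83 (0.0319). Dtna, a dystrobrevin, had -0.98 (0.0356), with 0.95 in low potassium and -0.03 with GW5074, neither of them called. Without LK_6h B the change of Dtna in low potassium was 1.55 and was called (0.00992). Cdr2, an antigen of paraneoplastic cerebellar degeneration, had -1.72 (0.0372), with 0.35 in low potassium, which was not called, and -1.37 with GW5074. Pik3r1, a regulatory subunit of PI3-kinase, had -1.07 (0.042), Pxdc1 had -1.04 (0.0459) and Anp32a, a histone-binding phosphatase inhibitor, had -1.25 (0.0459).

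The difference was positive for 10 genes. The sodium pump subunits Atp1b2 and Atp1b1 had 0.77 (0.0319) and 0.39 (0.0372). Tmem163 had 0.78 (0.0459) and Sipa1l2 had 0.72 (0.0459), and both fell in low potassium, by -0.80 and -0.86. Tspan5 had 0.66 (0.0373), the calcium sensor Ncs1 0.78 (0.0468), and Hectd4, a ubiquitin ligase family member, 0.68 (0.0468). The adhesion protein L1cam had 0.77 (0.0468), the secreted guidance protein Reln 0.55 (0.0468) and the receptor phosphatase Ptprf 0.73 (0.0468).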

How the results depend on the processing

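Hdac1 and several genes named for a promoter motif were not followed through the alternatives. Of the 168 genes that were, 161 were called. Of these, 138 were called in each alternative that tested them (23, or 22 for 11 genes), 23 lost the call in 1 or more, and 0 reversed. Among genes not called, the sign reversed without LK_6h A for Bbc3 (-0.098, from -0.098 to 0.333 with 1 array left out) and Txnip (0.109, from -0.4 to 0.109), and without LK_6h B, alone or with GW_6h B, for Trib3 (0.139 in both, from -0.665 to 0.139). The sign of Cdr2 reversed without LK_6h A (-0.04, from -0.04 to 0.831), and that of Crem, at 0.03, with several arrays left out (from -0.089 to 0.188; -0.003 without both 6 h arrays of letter B). The letters did not pair the arrays across times (correlations of deviations -0.067, 0.07 and 0.182). With them as a replicate block in the 6 low-potassium arrays 4272 probe sets were called. With 1 low-potassium array left out, calls ran from 2192 to 4956, rises from 1166 to 2404 and falls from 1026 to 2552. Without both 6 h arrays of letter B calls came to 5546, with 2661 rises and 2885 falls. With 1 left out, the AP-1 genes that fell ran from 3 to 12 (14 without both 6 h arrays of letter B) and the activity-dependent genes that fell from 4 to 10. Calls under the other settings, GW5074 arrays left out included, ran from 3430 (no filter) to 5852 (array weights), with 4374 (54.4% rises) without quantile normalisation against 4223 (51.4%). The difference between both courses was called for 33 probe sets with the letter pair within time as a replicate block. The causes were not tested.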
